A study of Rattus norvegicus with 9 samples.

Results

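The 35 rat genes described here act in the cell division cycle: the cyclins that open it, the proteins that copy DNA, the enzymes that supply nucleotides, and the kinases, motors and degradation factors of mitosis. They were found on the array through the RefSeq identifier of each probe, which was matched without its version to the current gene symbol. Of the 35 genes, 25 had a matched probe, 1 probe each, among 13903 matched genes on the array. The test for strain differences covered 24 of them, within 10861 genes and 16592 probes. The other 10 genes, Top2a, Birc5, Bub1b, Mcm3, Mcm4, Mcm5, Tk1, Mki67, Cenpf and Kif11, were not matched to a probe and were not analysed here.

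Kidney RNA came from 9 male rats aged 53 days, 3 from each of 3 strains: Dahl S, the Dahl salt-sensitive strain, SHR, the spontaneously hypertensive rat, and Dahl R, the Dahl salt-resistant strain. Per the labels, every animal was born on 1 day and weaned at 30 days. All 9 then ate food with 0.3% salt, so no group received a salt load. Each animal's RNA was labelled with Cy3 and put on its own Agilent one-colour array. Litters and preparation days are not given in the labels, and a p-value here covers only the spread between these samples, which may be partly technical.

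Cells leave the resting state when D-type and then E-type cyclins activate their kinases, which frees E2F transcription factors to switch on genes for DNA replication. Later in the cycle, complexes that contain B-Myb and FoxM1 switch on the genes of mitosis through a promoter element called the CHR, as described in human and mouse cells. Most tubule cells of a mature kidney are at rest, and proximal tubule cells can re-enter the cycle after injury.

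RefSeq promoters of build GRCr8, from 250 bases before to 50 bases after the gene start, were at hand for 27 of the 35 genes. Each was searched on both strands for the CHR as TTTGAA or TTTAAA, for the CCAAT box as CCAAT, and for an E2F word as TTTCCCGC, TTTGGCGC, TTTCGCGC or TTTGCCGC. A CHR match was present in 16 of 17 promoters of mitotic members (94.1%), in 1 of 9 promoters of replication and nucleotide members (11.1%), and in 28.3% of all 33469 promoters. An E2F word was present in 1 of the 17 mitotic promoters (5.88%), in 6 of the 9 replication and nucleotide promoters (66.7%), and in 2.14% of all promoters. The CCAAT box was found in 76.5% of the mitotic promoters, 66.7% of the replication and nucleotide promoters and 37.5% of all. CHR and CCAAT box occurred together in 12 of the 17 mitotic promoters (70.6%), in 0 of the 9 and in 11.3% of all; 11 of the 12 had no E2F word. These matches describe letters in a window and not bound sites, and each gene start was taken as annotated.

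Promoters of 4 members are shown, each with a different combination of these words: CHR alone, CHR with CCAAT box, all 3, and E2F with CCAAT box. They were chosen after the values were seen. Aurka, which encodes the spindle-pole kinase Aurora A, lies on the minus strand with its window at chr3:181560720-181561019. Plk1, a kinase of spindle poles and kinetochores, lies on the plus strand with its window at chr1:186147408-186147707, and holds the combination found in 11 of the 17 mitotic promoters. Cdk1, the kinase that drives entry into mitosis, lies on the plus strand with its window at chr20:19265043-19265342. Mcm7 encodes a subunit of the helicase that opens DNA for replication, and lies on the minus strand with its window at chr12:22163129-22163428. Each sequence runs 5′ to 3′ on the gene's strand, with every matched word in capitals.
Aurka: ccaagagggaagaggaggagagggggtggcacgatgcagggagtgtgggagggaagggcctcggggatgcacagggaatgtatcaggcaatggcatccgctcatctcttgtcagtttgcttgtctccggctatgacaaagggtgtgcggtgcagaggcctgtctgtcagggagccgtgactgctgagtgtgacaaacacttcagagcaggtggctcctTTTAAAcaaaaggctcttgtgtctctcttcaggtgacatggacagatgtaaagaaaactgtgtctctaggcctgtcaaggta
Plk1: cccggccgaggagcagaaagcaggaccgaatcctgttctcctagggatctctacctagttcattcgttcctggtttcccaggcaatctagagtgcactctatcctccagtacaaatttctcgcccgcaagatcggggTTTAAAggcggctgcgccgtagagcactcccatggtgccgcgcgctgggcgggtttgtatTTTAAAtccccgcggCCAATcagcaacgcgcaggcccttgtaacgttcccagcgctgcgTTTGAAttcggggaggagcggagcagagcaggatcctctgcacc
Cdk1: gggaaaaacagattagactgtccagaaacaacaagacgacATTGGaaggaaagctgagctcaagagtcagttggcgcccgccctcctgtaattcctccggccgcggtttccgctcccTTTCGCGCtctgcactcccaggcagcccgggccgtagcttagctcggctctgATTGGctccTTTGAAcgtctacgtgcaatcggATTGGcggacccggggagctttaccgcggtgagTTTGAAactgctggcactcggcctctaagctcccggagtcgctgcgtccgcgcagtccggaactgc
Mcm7: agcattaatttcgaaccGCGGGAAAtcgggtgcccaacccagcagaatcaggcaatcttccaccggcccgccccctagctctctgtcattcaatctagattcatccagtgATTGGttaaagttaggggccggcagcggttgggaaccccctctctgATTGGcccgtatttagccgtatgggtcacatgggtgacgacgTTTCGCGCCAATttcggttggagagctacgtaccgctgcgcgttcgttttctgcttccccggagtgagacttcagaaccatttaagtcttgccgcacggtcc
Aurka holds 1 CHR word, TTTAAA, 32 bases before the start, which reads the same on both strands, and no other word of the search. In this window an ATG follows the annotated start within a few bases. The letters just before that start, ctcttcag, resemble the end of an intron. The annotated Aurka start may therefore lie at an inner exon, and the window may not be its promoter. This was not tested. Plk1 holds TTTAAA at 113 and 53 bases and a CCAAT box at 38 bases before the start, and TTTGAA at base 7 of the gene. Cdk1 holds CHR words at 72 and 16 bases, CCAAT boxes at 210, 81 and 49 bases, and the E2F word TTTCGCGC at 133 bases before the start. In Mcm7 an E2F word at 52 bases overlaps a CCAAT box at 45 bases, further CCAAT boxes lie at 140 and 94 bases, and a further E2F word lies at 233 bases. Mcm7 holds no CHR word.

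Levels below are log2 signals relative to the array's 75th percentile, so that 0 is the signal of the spot at that percentile, and a negative level is a weaker spot. Of the 25 probes, 22 were well above background on all 9 arrays, a share to be set beside 42.7% of all probes on the array. Aurka was well above background on 8 arrays, the exception being SHR replicate 3. Ccnb1, cyclin B1, passed on 3 arrays (Dahl S replicate 2, SHR replicate 1 and Dahl R replicate 1), and its levels are a weak measure. Nusap1, a spindle protein, passed on none and was not tested; it is not well above background in any strain. The spots of Ccnd1 and Pcna on SHR replicate 3 were marked as outliers and left out, so SHR has 2 values for these genes. In whole-kidney RNA, fewer cells of a type and less RNA per cell cannot be told apart.

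Kidney identity was checked with marker lists. All 14 matched proximal tubule markers, 7 of 8 loop and distal tubule markers, 9 of 10 collecting duct markers and 6 of 8 podocyte markers were well above background on all 9 arrays. SHR replicate 3 stood apart: its 75th percentile was 1462 against 2120 to 2751 on the other arrays, its median local background was 88 against 43 to 45, and 7.93% of its spots were marked as outliers. Arrays with the same scan date in their file headers were taken to share a slide, so a slide here means a shared scan date. By that grouping SHR replicate 3 also sat alone on its slide. Slide 1 held Dahl S replicates 1 to 3 with Dahl R replicate 1, and slide 2 held SHR replicates 1 and 2 with Dahl R replicates 2 and 3. Dahl S and SHR shared no slide, so for this pair slide and strain cannot be told apart except through Dahl R.

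Dahl S against Dahl R sets the salt-sensitive against the salt-resistant line before any salt load. Most proliferation genes lay slightly above their Dahl R level in Dahl S, and no single gene passed the test. In 16 of the 24 tested members (66.7%), every Dahl S array lay above every Dahl R array, against 18.1% of all tested probes. No member lay wholly lower (0 of 24), against 12.9% of all probes. The median log2 difference was 0.29 (1.23-fold) over the members and 0.02 over all tested probes, and 21 of 24 differences were above 0, against 54.2% of probes. The limma test gave 0 of 24 members past an adjusted p of 0.05, against 1.4% of all probes. At an unadjusted p under 0.05 it gave 5 members, Rrm2, Foxm1, Aurka, Aurkb and Ube2c, against 10.5% of probes.

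**Figure D1:**
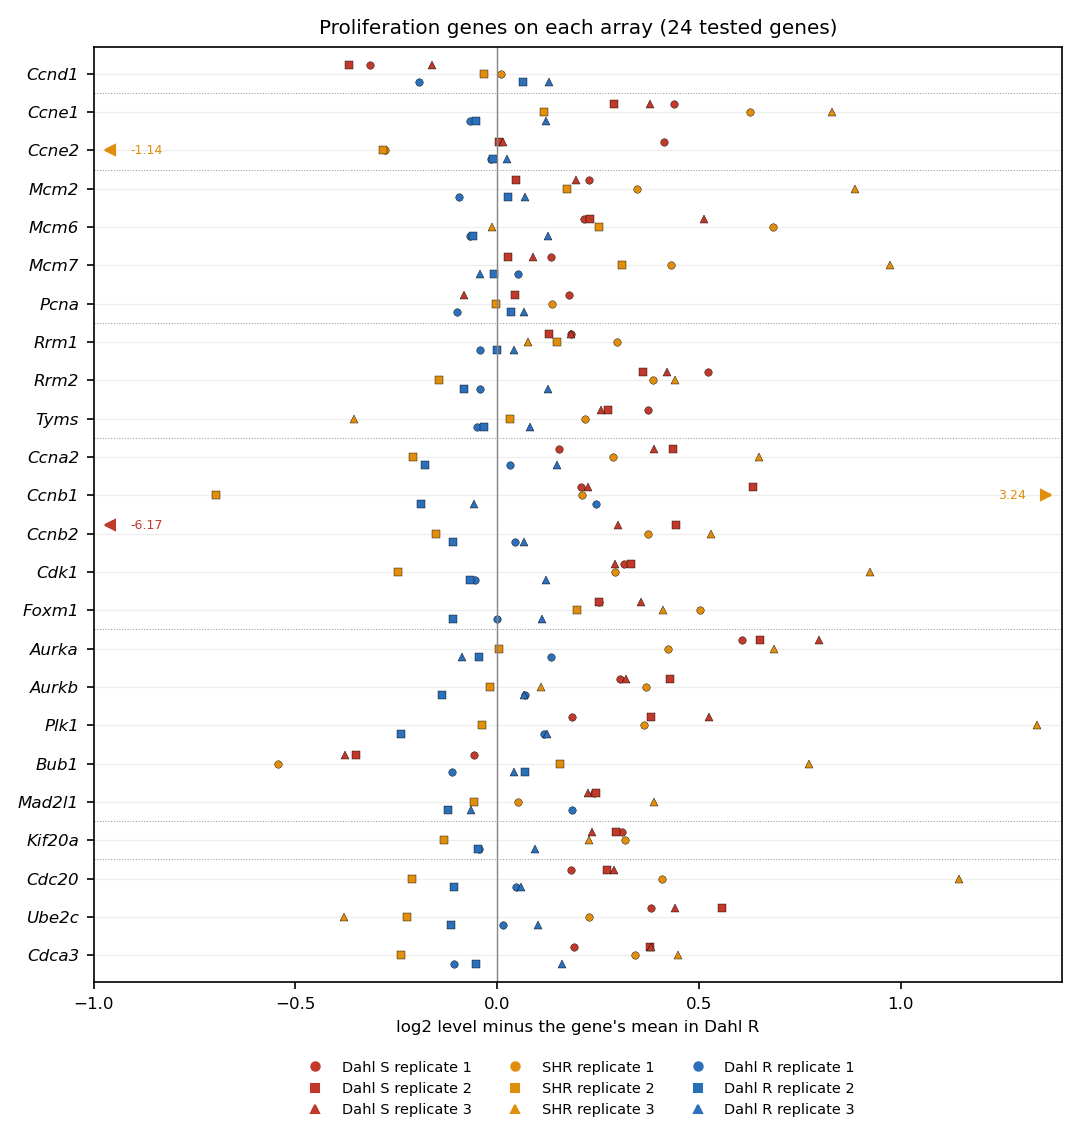
Level of each of the 24 tested genes on every array, as the log2 level minus the gene's mean in Dahl R (x axis); colours are strains, marker shapes are replicates, and dotted lines separate role groups. In 16 genes all 3 Dahl S points lie right of all 3 Dahl R points; the arrows mark 3 values beyond the axis, Ccne2 and Ccnb1 on SHR replicate 3 and Ccnb2 on Dahl S replicate 1.

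None of the G1 cyclins passed the test. Ccnd1 encodes cyclin D1, which couples growth signals to the cycle. Its level was 3.68, 3.62 and 3.83 in Dahl S, 4.0 and 3.96 in SHR, and 3.80, 4.06 and 4.12 in Dahl R. The Dahl S arrays overlapped the Dahl R arrays through Dahl R replicate 1 and lay below both SHR arrays. The difference was -0.28 ± 0.12 for Dahl S against Dahl R (SE, adjusted p = 0.478, limma) and -0.27 ± 0.13 for Dahl S against SHR (adjusted p = 0.217), the second with 2 SHR arrays. Ccnd1 was thus among the 3 members with a negative Dahl S to Dahl R difference, with Ccnb2 and Bub1.

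Ccne1 and Ccne2 encode the E cyclins, which activate Cdk2 at the start of S phase, and they ordered the strains differently. Ccne1 lay between -0.47 and -0.32 in Dahl S, between -0.64 and 0.07 in SHR, and between -0.82 and -0.64 in Dahl R. Every Dahl S array was above every Dahl R array for Ccne1 (0.37 ± 0.18, adjusted p = 0.548). Ccne2 was at -0.69, -1.10 and -1.09 in Dahl S, -1.38, -1.39 and -2.25 in SHR, and -1.12, -1.11 and -1.08 in Dahl R. All 3 SHR arrays were the lowest of the 9 for Ccne2, and Dahl S and Dahl R overlapped. The Ccne2 difference was 0.71 ± 0.24 for Dahl S against SHR (adjusted p = 0.087) and -0.57 ± 0.24 for SHR against Dahl R (adjusted p = 0.172), so neither passed.

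Among the replication members, Mcm7 separated SHR from both Dahl strains. Its level was 2.97, 2.86 and 2.92 in Dahl S, 3.26, 3.14 and 3.81 in SHR, and 2.88, 2.83 and 2.79 in Dahl R. Every SHR array lay above the other 6 arrays, and the Dahl strains overlapped. The difference was 0.57 ± 0.17 for SHR against Dahl R (1.49-fold, adjusted p = 0.0631) and -0.49 ± 0.17 for Dahl S against SHR (adjusted p = 0.0900). Without SHR replicate 3 it was smaller and passed the limma test on both sides. It was 0.37 for SHR against Dahl R (adjusted p = 0.0145), where 22.8% of all probes passed. For Dahl S against SHR it was -0.29 (adjusted p = 0.0324), where 26.2% of probes passed. Over the alternatives tried, its adjusted p ran from 0.0145 to 0.175 for SHR against Dahl R and from 0.0324 to 0.224 for Dahl S against SHR. With slide as a block, where SHR replicate 3 adds nothing because it is alone on its slide, SHR against Dahl R was 0.39 (adjusted p = 0.0322) and Dahl S against SHR -0.36 (adjusted p = 0.207). In that fit 16% of all probes passed for SHR against Dahl R and 5.22% for Dahl S against SHR.

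Mcm2 and Mcm6 are further subunits of that helicase. Mcm2 was between 1.88 and 2.06 in Dahl S, between 2.01 and 2.72 in SHR, and between 1.74 and 1.90 in Dahl R; each SHR array was above each Dahl R array (0.47 ± 0.18, adjusted p = 0.137). Mcm6 was between 1.76 and 2.06 in Dahl S, between 1.53 and 2.23 in SHR, and between 1.48 and 1.67 in Dahl R, and here the Dahl S arrays were the ones wholly above Dahl R (0.32 ± 0.18, adjusted p = 0.649). Pcna, the sliding clamp of the replicative polymerases and also of DNA repair, differed by 0.05 ± 0.11 between Dahl S and Dahl R and overlapped in all 3 comparisons.

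The nucleotide supply members all lay wholly higher in Dahl S than in Dahl R. Rrm2 encodes the cell-cycle-controlled subunit of ribonucleotide reductase, which makes deoxynucleotides. Its level was 2.66, 2.5 and 2.56 in Dahl S, 2.53, 2.00 and 2.58 in SHR, and 2.10, 2.06 and 2.27 in Dahl R. Dahl S and Dahl R did not overlap, while SHR spanned both, with replicate 2 below every Dahl R array. The Rrm2 difference was 0.43 ± 0.16 for Dahl S against Dahl R (1.35-fold, adjusted p = 0.386). Rrm1, the large subunit of the same enzyme, differed by 0.17 ± 0.09 (adjusted p = 0.617), and Tyms, thymidylate synthase, by 0.30 ± 0.15 (adjusted p = 0.559).

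Of the cyclins, kinase and transcription factor of mitosis, Ccna2, Cdk1 and Foxm1 lay wholly higher in Dahl S than in Dahl R. Ccna2 encodes cyclin A2, and its difference was 0.33 ± 0.21 (adjusted p = 0.72). Cdk1 differed by 0.31 ± 0.26 (adjusted p = 0.799), and its Dahl S arrays lay within 2.59 to 2.63, against 2.23 to 2.42 in Dahl R. Foxm1, the transcription factor named above, differed by 0.29 ± 0.11 (adjusted p = 0.402). Ccnb1 overlapped between the strains in every comparison.

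Ccnb2, cyclin B2, rests on a discrepant spot. Its level was -4.19, 2.43 and 2.28 in Dahl S, 2.36, 1.83 and 2.51 in SHR, and 2.03, 1.87 and 2.05 in Dahl R. Dahl S replicates 2 and 3 lay above every Dahl R array, while replicate 1 lay far below all others, on a spot that was well above background and carried no outlier mark. The fitted difference for Dahl S against Dahl R was -1.81 ± 1.58 (adjusted p = 0.816) with replicate 1 and 0.37 without it. On Dahl S replicate 1, 126 of 16285 probes lay more than 4 log2 units (16-fold) below both other Dahl S arrays, and 36 of these were well above background there. On the other 8 arrays this number was between 0 and 4.

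Among the mitotic kinases and checkpoint genes, Aurka gave the largest difference between Dahl S and Dahl R of all 24 members apart from Ccnb2. Its level was -3.86, -3.81 and -3.67 in Dahl S, -4.04, -4.46 and -3.78 in SHR, and -4.33, -4.51 and -4.55 in Dahl R. Dahl S and Dahl R were well separated, and the SHR arrays were spread between and over them. The Aurka difference was 0.69 ± 0.17 for Dahl S against Dahl R (1.61-fold, adjusted p = 0.143, limma). It passed the test without SHR replicate 3 (adjusted p = 0.0311), as 1 of 24 members against 4.59% of probes, and when only these 2 strains were fitted (adjusted p = 0.0183), as 1 of 2 members with Ube2c against 4.5% of probes, with the same difference; on slide 1 alone the difference was 0.55 (adjusted p = 0.41), with the lone Dahl R array assumed to vary like the Dahl S arrays. The adjusted p ran from 0.0183 to 0.496 over the 19 alternatives tried. Aurkb, the kinase of the chromosomal passenger complex, differed by 0.35 ± 0.12 (adjusted p = 0.337). Plk1 differed by 0.36 ± 0.32 (adjusted p = 0.816), and Mad2l1, a spindle checkpoint protein, by 0.24 ± 0.14 (adjusted p = 0.664); these 3 also lay wholly higher in Dahl S. Bub1, a checkpoint kinase, was the exception, at -0.26 ± 0.30 with overlapping strains.

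Kif20a stands for the spindle and chromosome proteins, since it is the only tested member of that role. It encodes a kinesin needed to complete cell division. Its level was 1.43, 1.41 and 1.35 in Dahl S, 1.43, 0.98 and 1.34 in SHR, and 1.07, 1.07 and 1.21 in Dahl R. The Dahl S arrays lay above all Dahl R arrays, and SHR replicate 2 lay below the other 8 arrays. The difference between Dahl S and Dahl R was 0.28 ± 0.13 (adjusted p = 0.518).

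The mitotic exit genes held the only call among the members. Ube2c encodes the ubiquitin-conjugating enzyme that works with the anaphase-promoting complex to destroy mitotic cyclins. Its level was -1.56, -1.39 and -1.50 in Dahl S, -1.72, -2.17 and -2.32 in SHR, and -1.93, -2.06 and -1.84 in Dahl R. The Dahl S arrays were the 3 highest of the 9, and SHR and Dahl R overlapped. Ube2c was higher in Dahl S than in SHR by 0.58 ± 0.16 (1.5-fold, adjusted p = 0.0466, limma). That call was lost without SHR replicate 3 (0.46, adjusted p = 0.0573) and with slide as a block (0.44, adjusted p = 0.445). Of the 9 fits with an array left out it held in 1, without SHR replicate 1 (0.76, adjusted p = 0.00778), and the adjusted p ran from 0.00778 to 0.445 over 19 alternatives. Against Dahl R the difference was 0.46 ± 0.16 (1.38-fold, adjusted p = 0.337), and it passed when only Dahl S and Dahl R were fitted (adjusted p = 0.0465). Cdc20, which activates the anaphase-promoting complex, differed by 0.25 ± 0.29 between Dahl S and Dahl R, and Cdca3 by 0.32 ± 0.19; both lay wholly higher in Dahl S.

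**Figure D2:**
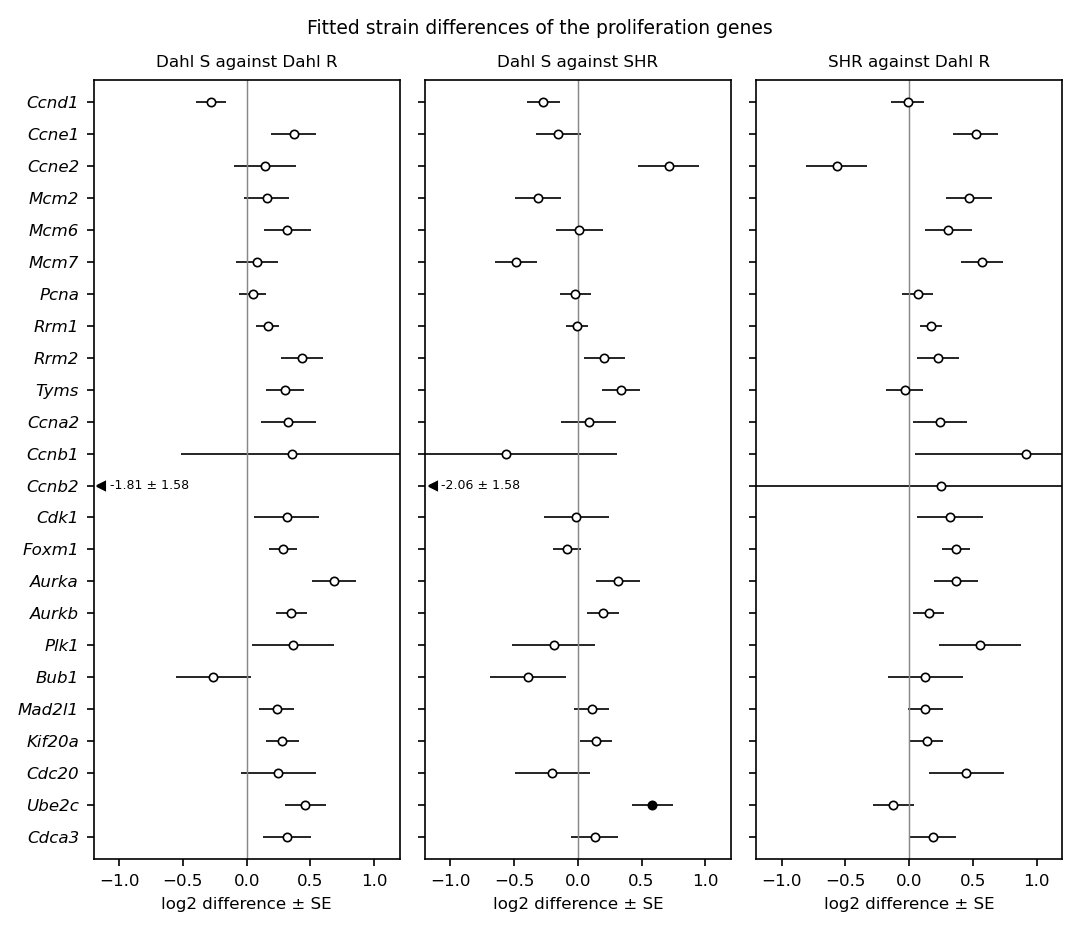
Fitted log2 difference with its standard error (x axis) for each of the 24 tested genes in the 3 comparisons, the first-named strain minus the second; filled points passed an adjusted p of 0.05. Only Ube2c in Dahl S against SHR is filled, and the arrows mark Ccnb2, whose values of -1.81 and -2.06 lie beyond the axis.

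On slide 1, the single Dahl R array there, replicate 1, lay below all 3 Dahl S arrays in 19 of 24 members (79.2%), against 31.2% of all tested probes. The 16 members named as wholly higher are among these by construction. The median member difference on slide 1 was 0.27, and the fit with slide as a block gives the same value because it rests on the same Dahl R array. Leaving out Dahl S replicate 1 gave 17 members wholly higher, against 20.4% of probes, and a median of 0.31.

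Dahl S against SHR sets the salt-sensitive strain against a strain that becomes hypertensive on ordinary salt. The count of members above 0 differed between fits here. Ube2c alone passed, 1 of 24, against 15.7% of all tested probes in either direction and 7.08% higher in Dahl S, and 3 members passed at an unadjusted p under 0.05, against 31.4% of probes. The median member difference was -0.01, against -0.09 over all probes, and 11 of 24 differences were above 0, against 41.3% of probes. Ccne2, Tyms and Ube2c lay wholly higher in Dahl S (3 of 24, against 15.2% of probes), and Ccnd1 and Mcm7 wholly lower (2 of 24, against 22.7%). Without SHR replicate 3 the median was 0.18, against -0.03 over all probes, 14 of 24 differences were above 0, against 46% of probes, and 2 members passed, Aurka higher in Dahl S (0.47, adjusted p = 0.0489) and Mcm7 lower, against 26.2% of probes. With slide as a block the median was 0.10 and 19 of 24 differences were above 0, against 46.4% of probes. In that fit 0 of 24 passed, against 5.22% of probes. There 1 of 24 had an unadjusted p under 0.05 in limma, against 3235 of 16592 probes.

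In SHR against Dahl R, which share Dahl R with the first comparison and SHR with the second, limma gave 0 of 24 members past the threshold, against 13% of all probes, and 5 at an unadjusted p under 0.05, against 27.9%. The median difference was 0.24, against 0.11 over all probes, and 20 of 24 differences were above 0, against 61.4% of probes. Mcm2, Mcm7, Rrm1 and Foxm1 lay wholly higher in SHR (4 of 24, against 24.7% of probes), and Ccne2 wholly lower (1 of 24, against 14.1%). The result depended on which SHR array was counted. Without SHR replicate 3 the median was 0.10 and Mcm7 passed, 1 of 24, against 22.8% of probes. With slide as a block Mcm7 alone passed as well, against 16% of probes, and the median was 0.10. Without SHR replicate 2 the median was 0.40, 16 members lay wholly higher, against 31.3% of probes, and 4 passed, against 10.6%: Ccne1, Mcm7, Foxm1 and Aurka. On slide 2, SHR replicates 1 and 2 lay above Dahl R replicates 2 and 3 in 7 of 24 members (29.2%), against 37.2% of all probes.

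SHR arrays differed from each other more than arrays of the Dahl strains did, across the member genes and across all tested probes. As each animal had its own array, the animal and the array cannot be told apart. The median standard deviation of a member between arrays of its strain was 0.09 in Dahl S, 0.35 in SHR and 0.11 in Dahl R; over all tested probes it was 0.13 in Dahl S, 0.31 in SHR and 0.10 in Dahl R. The spread in SHR was not that of replicate 3 alone. SHR replicate 1 lay above SHR replicate 2, on the same slide, in 23 of 24 members (95.8%), with Bub1 the exception, against 50.1% of all probes; the median of these differences was 0.41, against 0.00 over all probes. SHR replicate 1 lay above every Dahl R array in 19 of 24 members, against 42.3% of probes. SHR replicate 2 lay above every Dahl R array in 6 members, against 44.5% of probes, and below every Dahl R array in 10, against 32.4%. It lay inside the Dahl R range in 8 members, against 3822 of 16546 probes. Set against Dahl S, it lay below every array in 16 of 24, against 34.1% of probes.

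A smaller gap of the same kind separated the Dahl R arrays on slide 2. Dahl R replicate 3 lay above Dahl R replicate 2 in 21 of 24 members (87.5%), against 51.9% of all probes, with a median of 0.15. In Dahl S, replicate 3 lay above replicate 2 in 13 of 24, against 48.5% of probes. Dahl S replicate 1 lay above replicate 2 in 11 of 24 (45.8%), against 74.5% of probes, and above replicate 3 in 11 of 24, against 72.3%. Of the 5 mitotic cyclins, kinase and transcription factor, 0 were higher in replicate 1 than in replicate 2. As these genes share an array, their agreement on it is a description of that animal's sample and not of independent measurements.

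Other genes of the same pathways were read from lists on the same 9 arrays. Like the members, these lists were chosen with earlier results of these data known, so they are no independent check. Of 45 further mitosis genes tested, 0 passed in Dahl S against Dahl R, against 1.4% of all tested probes. Of the 45, 28 lay wholly higher in Dahl S (62.2%), against 18.1% of probes, and the median was 0.26. Of 39 further replication genes, 1 passed, against 1.4% of probes. Of the 39, 15 lay wholly higher (38.5%), against 18.1% of probes, with a median of 0.12. With slide as a block 0 of these 39 passed, against 0.988% of probes. In that fit 8 of the 39 had an unadjusted p under 0.05 in limma, against 1787 of 16592 probes. The gene that passed over the 9 arrays was Pola2, the second subunit of DNA polymerase alpha, which starts new DNA strands. Pola2 was at 1.31, 1.13 and 1.1 in Dahl S, 1.59, 1.56 and 1.26 in SHR, and 0.43, 0.48 and 0.31 in Dahl R. Dahl R stood below the other 6 arrays, by 0.77 ± 0.12 for Dahl S against Dahl R (adjusted p = 0.0249) and 1.06 ± 0.12 for SHR against Dahl R (adjusted p = 0.00144).

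**Figure D3:**
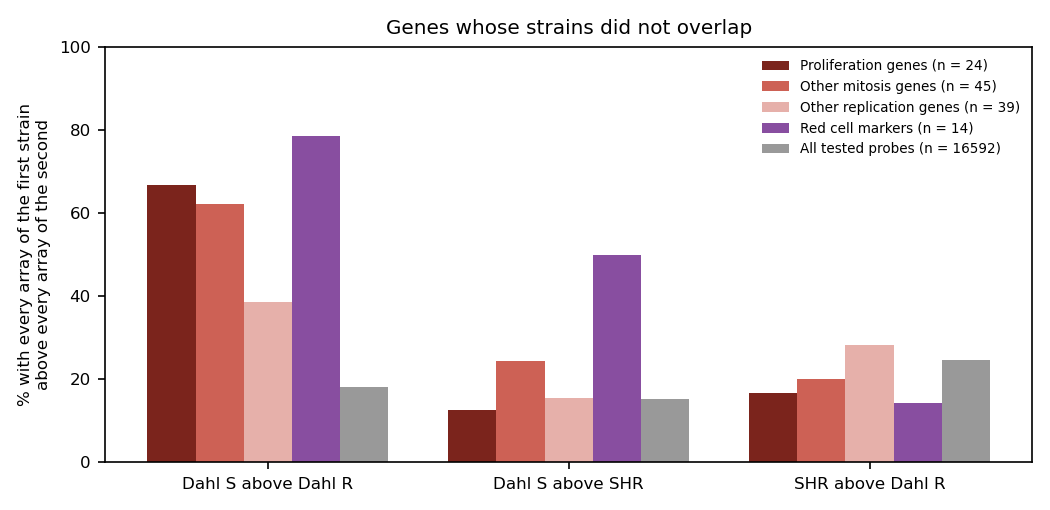
Percent of tested genes in which every array of the first strain lay above every array of the second (y axis), for the proliferation genes, other mitosis genes, other replication genes, red cell markers and all 16592 tested probes. For Dahl S above Dahl R the bars are 66.7%, 62.2%, 38.5%, 78.6% and 18.1%; for the comparisons with SHR the proliferation genes are at 12.5% and 16.7%.

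In Dahl S against SHR, 3 of the 39 replication genes were higher in Dahl S and 1 lower, and 1 of the 45 mitosis genes was higher, against 7.08% of all probes higher and 8.62% lower. In SHR against Dahl R, 6 replication genes were higher in SHR and 2 lower, and 3 mitosis genes were higher, against 7.56% of all probes higher and 5.49% lower. Mcm8, a helicase of recombination and not part of the replicative ring, was higher in Dahl S than in SHR (2.49 ± 0.27, adjusted p = 0.00103) and lower in SHR than in Dahl R (-1.35 ± 0.27, adjusted p = 0.0171), and its probe passed the background mark on 2 of 3 SHR arrays.

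Timeless, of the replication fork, was higher in Dahl S than in SHR by 1.1 ± 0.26 (adjusted p = 0.0278), and the phosphatase gene Cdc25b by 1.25 ± 0.27 (adjusted p = 0.0184). Of the kinetochore genes, Cenpm was higher in SHR than in Dahl R by 0.78 ± 0.14 (adjusted p = 0.0118) and Cenpi by 0.52 ± 0.14 (adjusted p = 0.0487). The mitotic inhibitor Wee1 was higher in SHR by 0.50 ± 0.12 (adjusted p = 0.0347). In SHR the probes of Cdc25b, Cenpm and Cenpi passed the background mark on 2 of 3 arrays.

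Upstream of the members, 8 further G1 cyclins and kinases, 6 cyclin-dependent kinase inhibitors and 9 E2F, Rb and MuvB genes gave no call in Dahl S against Dahl R. Of all tested probes, 1.4% passed in that comparison. The medians of these lists, in that order, were 0.06, 0.34 and 0.12. In Dahl S against SHR the lists gave, in the same order, 1 of 8, 1 of 6 and 0 of 9 calls, against 15.7% of all probes. In SHR against Dahl R they gave 1 of 8, 1 of 6 and 1 of 9, against 13% of all probes. Ccnd2, cyclin D2, was higher in Dahl S than in SHR (2.01 ± 0.15, adjusted p = 0.000158) and lower in SHR than in Dahl R (-1.52 ± 0.15, adjusted p = 0.00071). Cdkn1a, the p21 inhibitor, was higher in Dahl S than in SHR (1.44 ± 0.20, adjusted p = 0.00294). Cdkn1c, the p57 inhibitor, was higher in SHR than in Dahl R by 0.53 ± 0.13 (adjusted p = 0.0379), and E2f7, a repressor of the E2F family, by 0.89 ± 0.24 (adjusted p = 0.0477). The background mark was passed by Ccnd2 on 2 of 3 SHR arrays, and by E2f7 on 2 arrays in SHR and 2 in Dahl R.

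**Figure D4:**
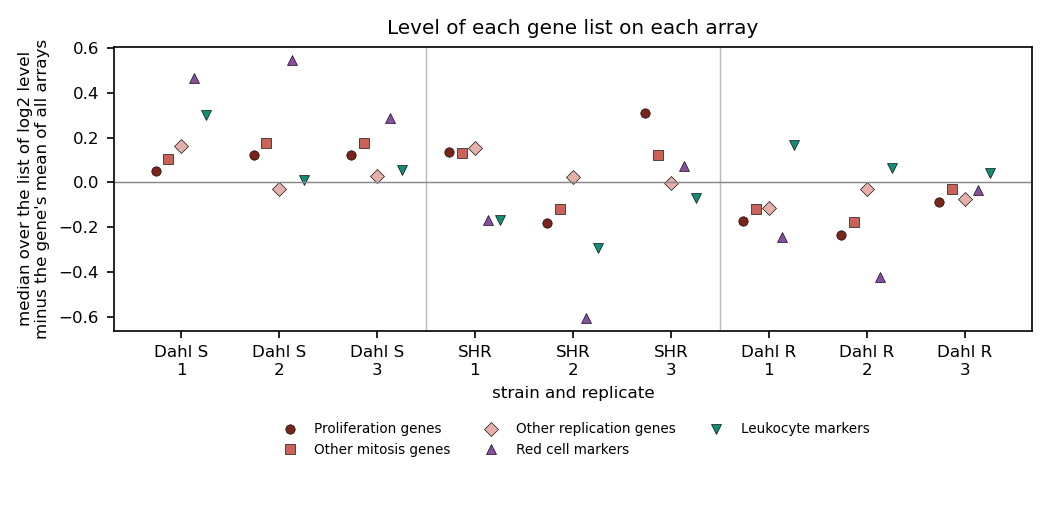
Median over each gene list of the log2 level minus the gene's mean over all arrays (y axis), for each array (x axis). The proliferation genes lie between 0.05 and 0.12 in Dahl S, between -0.18 and 0.31 in SHR and between -0.23 and -0.09 in Dahl R; red cell markers lie above 0 in all Dahl S arrays and below 0 in all Dahl R arrays.

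Markers of other cells were read beside these levels. Among red cell and erythroid markers, 13 of 14 differences between Dahl S and Dahl R were above 0, against 54.2% of all tested probes. Of the 14, 11 lay wholly higher (78.6%), against 18.1% of probes, and the median was 0.71. The 1 of 14 that passed, against 1.4% of probes, was Slc4a1 (0.78 ± 0.13, adjusted p = 0.0483, limma). It encodes the red cell anion exchanger that is also present in intercalated cells of the collecting duct. The summed linear level of these markers, in units of the array's 75th percentile and with outlier spots kept, was 555 to 695 in Dahl S, 492 to 585 in SHR and 498 to 534 in Dahl R. Between SHR replicates 1 and 2 they were higher in replicate 1 in 10 of 13 genes, against 50.1% of probes. Between Dahl R replicates 3 and 2 they were higher in replicate 3 in 12 of 13, against 51.9%. The globin gene Hba-a3 was not well above background on any SHR array.

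Of 12 injured tubule markers, 2 passed, both higher in Dahl S than in Dahl R: Havcr1, known as kidney injury molecule (3.30 ± 0.30, adjusted p = 0.00193), and Spp1, osteopontin (1.34 ± 0.14, adjusted p = 0.00844). Of all tested probes, 1.4% passed in that comparison. The median over the 12 markers was 0.37, and 8 lay wholly higher, against 18.1% of probes. The summed level of these markers was 246 to 306 in Dahl S, 149 to 175 in SHR and 153 to 170 in Dahl R. Between SHR replicates 1 and 2, replicate 1 was the higher in 5 of 11, against 50.1% of probes. Leukocyte markers had a median Dahl S to Dahl R difference of 0.00 over 25 genes, with 0 calls. Of the 25, 3 had an unadjusted p under 0.05 in limma, against 10.5% of probes. The summed level of the leukocyte markers was 160 to 180 in Dahl S, 114 to 156 in SHR and 160 to 182 in Dahl R. SHR replicate 3 gave the lowest SHR sum for both the injured tubule and the leukocyte list. There only 8 of 12 injured tubule and 20 of 25 leukocyte markers had a spot without an outlier mark. The macrophage gene Cd163 did not pass the background mark anywhere. Of 10 stromal markers, Dcn, decorin, passed (1.86 ± 0.27, adjusted p = 0.0199), with a median of 0.21 over the list. With slide as a block no red cell, injured tubule or stromal marker passed, against 0.988% of all probes. In limma, 7 of 14 red cell, 3 of 12 injured tubule and 3 of 10 stromal markers had an unadjusted p under 0.05 there. That level was reached by 1787 of 16592 probes. The highest difference in that fit was 3.07 among injured tubule and 1.71 among stromal markers. The median was 0.20 over 10 collecting duct markers, which include Slc4a1, and 0.06 over 14 proximal tubule, 0.01 over 7 loop and distal tubule, 0.04 over 8 endothelial and -0.03 over 8 podocyte markers. The part of these cell types in the member differences was not tested.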

How the data were processed

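Per the labels, 1 μg of Trizol-extracted RNA per kidney was labelled with Cy3. The authors deposited the scanner files, which come from Agilent Feature Extraction 10.5.1.1 according to the submitters' processing notes. Their processed signal, an intensity, had its background subtracted by that software, per the file headers, and was not normalized between arrays. A second deposited table holds the authors' own values of 19407 probes, taken as log2. They correlated with the log2 scanner signals (r of 0.974 to 1.00); their normalization is not known, and they served only as an alternative.

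Levels were the log2 of the processed signal over the 75th percentile of the 42136 non-control spots of its array. Spots marked as outliers were then dropped, and a probe's spots averaged. The summed linear levels of the marker lists are the exception, as they kept the outlier spots. Probes entered the test when a share of 0.5 or more of their spots passed the software's background mark on 3 or more arrays, with a usable spot left in every strain. Strains were compared with limma 3.58.1 in R 4.3.3 (lmFit, eBayes) over all 9 arrays, with strain as the only term. Benjamini-Hochberg adjustment ran over all tested probes, at a threshold of 0.05. The fit was tested on simulated data. The number of arrays limits the precision. Alternatives changed the scaling, the filter, the outlier spots, the slide term and the arrays included.

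The members and lists were chosen with earlier results of these data known, so lists get no test. Given on every array are members that passed in any comparison and, per role, the member with the largest difference. Other lists give at most 3 genes per comparison. Promoters follow RefSeq, GRCr8. The array's grid uses another build, so probe positions are not given. One gene of these lists is not reported here.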

Additional observations from a re-analysis of the deposited data

How the results depend on the processing

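The median Dahl S to Dahl R difference of the members kept its direction under all 20 alternatives (0.24 to 0.33), and 14 to 18 members lay wholly higher under 11. No member passed there in the 9-array fit; 2 passed when only Dahl S and Dahl R were fitted (4.5% of all probes did), and 0 to 1 with an array left out (the 1 without SHR replicate 3, where 4.59% of probes did). In Dahl S against SHR, 0 members passed under normexp with quantile normalization, quantile normalization, outlier spots kept, the authors' deposited values, no signal filter, slide as a block, replicate block and a fit of those 2 strains only, and 0 to 2 with an array left out (the 2 without SHR replicate 3, where 26.2% of probes did). The median was -0.12 to 0.18 with an array left out, and 5 members lay wholly higher under normexp, quantile normalization, the percentile over probes detected on all 9 arrays and the authors' values, and 3 to 5 with an array left out. For SHR against Dahl R, 2 of 22 members (Mcm7, Foxm1) passed among probes well above background on all 9 arrays (19.2% of these did), 1 with slide as a block (16%) and 0 to 4 with an array left out (the 4 without SHR replicate 2, 10.6%), where the median was 0.10 to 0.40 and 4 to 16 members lay wholly higher; the highest values came without SHR replicate 2.

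Differences that changed sign were Ccnb2 without Dahl S replicate 1 (0.37 against Dahl R, 0.12 against SHR; -2.94 to 0.37 and -3.19 to 0.12 with an array left out), Ccnd1 in Dahl S against SHR with slide as a block (0.020), Ccnd1 in SHR against Dahl R with outlier spots kept (0.13), the authors' values (0.057) and arrays left out (-0.11 to 0.053), Kif20a in SHR against Dahl R under normexp (-0.027), and Ube2c in SHR against Dahl R with slide as a block or on slide 2 (0.010) and with an array left out (-0.30 to 0.0031). Deviations of same-numbered arrays of different strains correlated at -0.16 to 0.07, and those of differently numbered arrays at -0.18 to 0.20. With 3 arrays per strain these values cannot settle whether the numbers pair the animals. The replicate block turned Ccnd1 in SHR against Dahl R to 0.050 and left 0 calls among members in Dahl S against SHR. Calls over all probes in Dahl S against SHR were 1902 with that block and 2605 without. As a pairing by number is not known, this says nothing of a weaker effect. Quantile normalization moved the median of all probes to 0.03, against -0.09, for Dahl S against SHR and to -0.02, against 0.11, for SHR against Dahl R; the member medians were then 0.08 and 0.16. The causes were not tested. Averaging a gene's probes was not run, since each member has 1 probe. Without SHR replicate 3, 2 SHR arrays remained. The lowest level well above background was -2.99 on SHR replicate 3, against -7.51 to -5.92 on the other arrays, which limits Aurka and Ccnb1 there.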
